A study of Saccharomyces cerevisiae with 42 samples.

Results

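Yeast lacking DPL1 was set against its parental strain at the end of a heat course, after 25 and 30 min at 39 C. The comparison rests on 8 of the 42 arrays of the series: 4 from the dpl1 deletion and 4 from the parental strain, with 2 arrays of each strain at each time. These arrays were chosen by their strain and time labels, with no measured value used. Log-phase cells of budding yeast (Saccharomyces cerevisiae) in the rich glucose medium YPD gave the total RNA, which was labelled with biotin and put on 1 Affymetrix array per sample. The dpl1 strain (labelled dpl1D) carries DPL1 replaced by KanMX, a drug resistance cassette. The parental strain is labelled JK939a. Both are labelled MAT α, and both carry the markers leu2, ura3, trp1 and his4 together with rme1 and HMLa. A further strain (lcb4D/lcb5D) on the same background, with KanMX in both LCB4 and LCB5, is set beside them at the end and is called the double deletion. The labels give neither the number of clones nor the origin of the replicates, so each p-value reflects the spread among these samples alone, and that spread may be technical.

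DPL1 encodes the lyase that splits the phosphates of sphingoid bases (the backbones on which sphingolipids are built) and so provides their way out of the pathway. LCB4 and LCB5 encode the kinases that make those phosphorylated bases. Heat is known to raise sphingoid bases and their phosphates in yeast, and a strain without DPL1 accumulates the phosphates. The comparison asks which transcripts stand at another level in such a strain once the heat response has run for some time. Lipids were not measured on these arrays.

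All values are levels on the log2 scale after the RMA procedure, and a difference is dpl1 minus parental, so that 1 stands for a 2-fold higher level in dpl1. Array values are given in the order 25 min replicate 1, 25 min replicate 2, 30 min replicate 1 and 30 min replicate 2. A gene was called at a Benjamini-Hochberg adjusted p under 0.05 over the 5656 genes tested with limma, with time and replicate number as blocks. Array medians lay between 5.61 and 5.75 in dpl1 and between 5.64 and 5.70 in the parental strain. Correlations between the 8 arrays ran from 0.948 to 0.992 over genes, and genes are not independent replicates. Arrays of different strains that shared a replicate number correlated at 0.972 to 0.989 (8 pairs), and arrays of a strain with different numbers at 0.948 to 0.982 (8 pairs). In the same 8 arrays 1620 genes (28.6%) were called between replicates 2 and 1, while limma called 0 between 30 and 25 min, where 736 genes (13%) had an unadjusted p under 0.05.

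The late replicate 2 arrays of the strains differed in their ribosomal RNA controls. The 18S controls averaged 13.02, 12.40, 13.04 and 12.41 in the dpl1 arrays, against 13.25, 9.84, 13.10 and 5.77 in the parental arrays. At the 5 earlier times the replicate 2 arrays had read 4.69 to 6.49 in dpl1 and 4.57 to 11.18 in the parental strain. The 2 late dpl1 arrays were thus high for their number, while the late parental ones lay within their earlier range. The double deletion's replicate 2 arrays read 4.82 to 7.20 at the earlier times and 5.25 to 10.49 late. The 25S controls read 12.85 and 12.83 in the dpl1 replicate 2 arrays, against 11.65 and 8.73 in the parental ones. For the SRB4 control the 3' probe set exceeded the 5' one by 1.66 to 2.29 in dpl1 replicate 2 and by 1.76 to 1.87 in parental replicate 2, while in replicate 1 the gap was 0.33 to 0.35 in dpl1 and 0.16 to 0.73 in the parental strain.

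Levels of different probe sets cannot be set against each other on these arrays, so the labelled mating type was not tested, and its marker genes are given by their values. The 4 alpha-specific genes (among them the pheromone gene MF(ALPHA)1 and the receptor gene STE3) had mean levels of 5.17 to 8.81 in dpl1 and 5.29 to 8.66 in the parental strain. The 6 a-specific genes had mean levels of 2.74 to 5.15 in dpl1 and 2.69 to 5.40 in the parental strain, and the alpha-factor receptor gene STE2 averaged 3.29 in dpl1 and 3.42 in the parental strain. None of these 10 genes was called between the strains.

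The deleted gene gave the widest gap among the genes tested. DPL1 (YDR294C) read 3.10, 2.75, 3.30 and 2.64 in the dpl1 arrays, against 8.85, 9.57, 9.57 and 9.81 in the parental arrays. All dpl1 arrays lay far below all parental ones. DPL1 fell by 6.50 ± 0.21 (SE, 95% interval -6.95 to -6.06, adjusted p 1.63e-09). The dpl1 level lies near the dimmest of the arrays, so this difference, 90.6-fold on the linear scale, is set by the floor of the signal and is a lower bound. In the dpl1 strain DPL1 stayed between 2.58 and 3.63 at all 7 times, while the parental arrays read 8.72 and 8.95 before heat. No source used here says which stretch was deleted or where the probe set lies. The genes on either side of DPL1 in the RefSeq gene table were not called. SSD1, an RNA-binding translational repressor, differed by 0.32 ± 0.15 (adjusted p 0.469), and HDA2, a histone deacetylase subunit, by -0.23 ± 0.13 (adjusted p 0.543). HDA2 read 3.23 to 3.50 in dpl1 and 3.47 to 3.66 in the parental strain. That is close to the signal of the deleted DPL1, so a fall of HDA2 could hardly be seen.

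**Figure D1:**
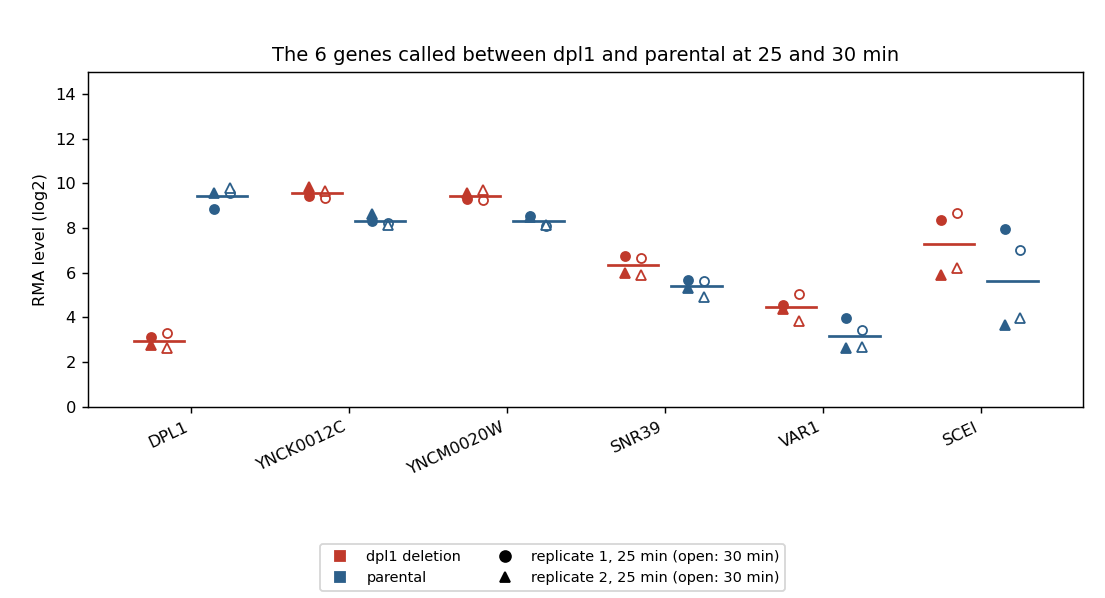
RMA levels (log2, vertical axis) of the 6 genes called between the strains, with the 4 dpl1 arrays left of the 4 parental arrays for each gene; lines are means, circles replicate 1, triangles replicate 2, filled marks 25 min and open marks 30 min. DPL1 averages 2.95 in dpl1 and 9.45 in the parental strain, while VAR1 and SCEI overlap between the strains.

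Few other genes differed. limma called 6 of 5656 genes (0.106%), 5 of them higher in dpl1 (0.0884%) and 1 lower (0.0177%), and the gene that was lower was DPL1. At an unadjusted p under 0.05 there were 603 genes (10.7%), 304 higher (5.37%) and 299 lower (5.29%). The arrays of the strains did not overlap for 149 genes (2.63%): the 4 dpl1 arrays lay wholly above the 4 parental arrays for 34 genes (0.601%) and wholly below for 115 genes (2.03%). The median gene differed by -0.01, and the median SE was 0.15. The 95% interval lay within 1 of 0 for 5525 genes (97.7%), and within 0.5 of 0 for 3272. Among the 5466 nuclear protein-coding genes other than DPL1 the interval lay within 1 of 0 for 5417 (99.1%). The 20 genes that differed by 1 or more were DPL1, 7 genes of the mitochondrial genome, 4 tRNA genes, 3 snoRNA genes, 1 snRNA gene, 2 rRNA genes and 2 nuclear protein-coding genes. The intervals and the counts at an unadjusted p rest on the model of the spread. The main fit takes the 25 and 30 min arrays of a strain and replicate as independent. Their consensus correlation was 0.484 in a fit without the replicate block. The 603 genes became 189 without that block, 342 in a fit of all 42 arrays and 52 with each strain's replicate course as a random block. The number of calls depended on the model too. It was 1 without the replicate block, 1 with each strain's replicate course as a random block and 1 in a fit of all 42 arrays, that gene being DPL1 each time. Within replicate 1 it was 11 and within replicate 2 it was 222, and it was 85 without the parental 25 min replicate 1 array, 13 without the dpl1 25 min replicate 1 array and 2 or 3 without any 1 of the dpl1 30 min arrays, the parental 30 min replicate 1 array or the parental 30 min replicate 2 array.

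**Figure D2:**
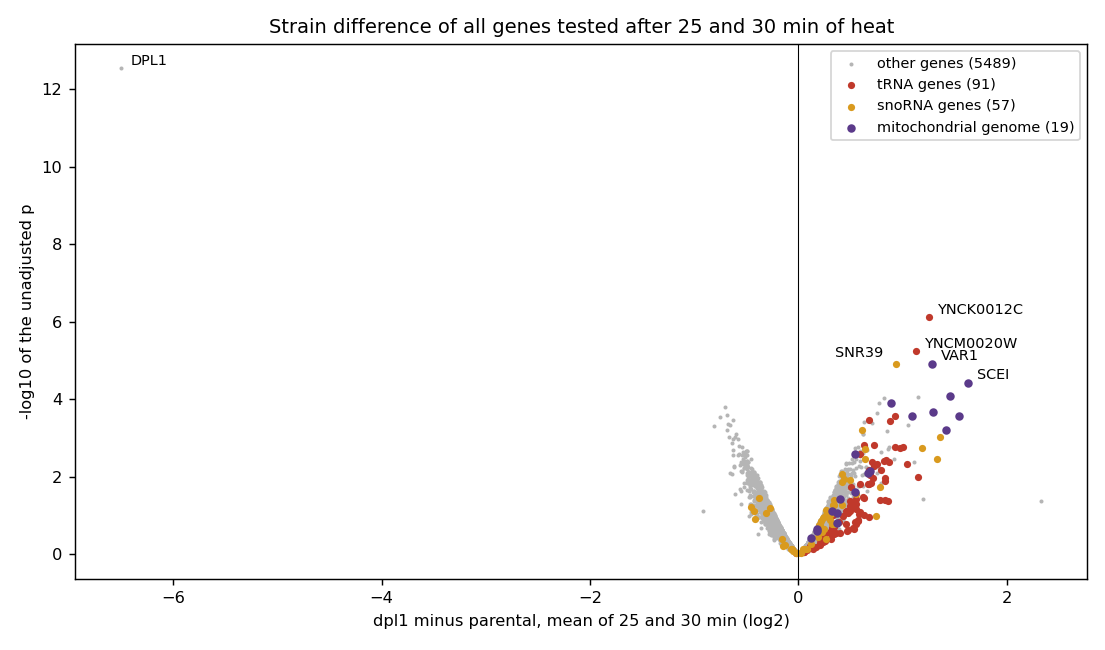
Strain difference of each of 5656 genes (dpl1 minus parental, log2, horizontal axis) against the -log10 of its unadjusted p (vertical axis), with tRNA, snoRNA and mitochondrially encoded genes in colour and the 6 called genes named. DPL1 stands alone at -6.50, and the coloured classes lie mostly right of 0.

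No other gene of the sphingolipid pathway was called. The list of sphingolipid synthesis and turnover holds 41 genes, and DPL1 was the 1 member called. The other 40 differed by -0.27 to 0.33, and their 95% intervals ran from no lower than -0.63 to no higher than 0.73. The smallest adjusted p among them was 0.456. LCB5 (YLR260W), a sphingoid base kinase, read 6.98, 6.70, 7.09 and 7.41 in dpl1, against 6.56, 7.66, 7.14 and 7.48 in the parental strain, and differed by -0.17 ± 0.19. LCB4 (YOR171C), the other kinase, read 4.97, 5.01, 4.64 and 5.35 in dpl1, against 4.49, 4.81, 4.66 and 5.21 in the parental strain, a difference of 0.20 ± 0.15. Both genes overlapped between the strains. FAA4, an acyl-CoA synthetase that activates fatty acids, differed by 0.33 ± 0.15, and YPK2, a kinase that acts downstream of sphingoid bases, by 0.32 ± 0.15 (adjusted p 0.456 and 0.465). SLM2, a membrane-bound partner of the TOR complex, differed by -0.27 ± 0.14 (adjusted p 0.514). The list median was 0.04, against -0.01 over all genes. The marker genes that are mutated in both strains were not called either: LEU2 differed by -0.12, URA3 by -0.02, TRP1 by 0.28 and HIS4 by 0.07.

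The 5 called genes that were higher in dpl1 were 2 tRNA genes, 1 snoRNA gene and 2 genes of the mitochondrial genome. The tRNA gene YNCK0012C read 9.45, 9.86, 9.35 and 9.67 in dpl1, against 8.33, 8.61, 8.24 and 8.13 in the parental strain. It rose by 1.26 ± 0.14 (SE, adjusted p 0.00217), and no dpl1 array overlapped a parental one. The tRNA gene YNCM0020W read 9.30, 9.57, 9.26 and 9.69 in dpl1, against 8.56, 8.51, 8.10 and 8.13 in the parental strain. It rose by 1.13 ± 0.15 (adjusted p 0.0108), again without overlap. Both probe sets are of the kind that matches a family of similar sequences, so the signal cannot be given to a single gene. SNR39, a snoRNA of the class that guides the modification of ribosomal RNA, read 6.76, 5.999, 6.64 and 5.90 in dpl1, against 5.66, 5.32, 5.65 and 4.92 in the parental strain. SNR39 rose by 0.94 ± 0.13 (adjusted p 0.0139), and its arrays did not overlap. VAR1, the ribosomal protein encoded in the mitochondrial genome, read 4.54, 4.38, 5.03 and 3.85 in dpl1, against 3.97, 2.61, 3.44 and 2.65 in the parental strain. VAR1 rose by 1.28 ± 0.18 (adjusted p 0.0139), with 1 dpl1 array inside the parental range. The parental replicate 2 values are as low as those of the deleted DPL1, so this difference too is taken against dim signal, and VAR1 was not among the genes left when the dimmest 25% were removed. SCEI, an intron-encoded endonuclease of the mitochondrial genome, read 8.34, 5.88, 8.68 and 6.21 in dpl1, against 7.95, 3.67, 7.01 and 3.97 in the parental strain. SCEI rose by 1.63 ± 0.26 (adjusted p 0.0346), and replicate 2 lay below replicate 1 in both strains.

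These 5 calls were lost in several fits. None held without the replicate block (adjusted p 0.0775 for YNCK0012C, 0.164 for YNCM0020W, and 0.998 for SNR39, VAR1 and SCEI), and none in the fit of all 42 arrays (0.298 to 0.730). Without the parental replicate 2 arrays, which had the low 18S signal, the differences were 1.12 for YNCK0012C, 0.95 for YNCM0020W, 1.05 for SNR39, 1.08 for VAR1 and 1.03 for SCEI, and the adjusted p lay between 0.144 and 0.387. With the replicate block, the fit without those arrays takes the strain difference from replicate 1 alone. When any 1 of the 4 arrays at 30 min was left out, YNCK0012C stayed called and the other 4 genes did not. VAR1 and SCEI were also lost without the dpl1 25 min replicate 2 array (adjusted p 0.0581 and 0.169) or the parental 25 min replicate 2 array (0.0844 and 0.148).

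The classes these genes belong to are given by their counts, beside 5.37% of all genes higher and 5.29% lower at an unadjusted p under 0.05. Of 91 tRNA genes, 90 had a positive difference and 39 had an unadjusted p under 0.05, all higher in dpl1, while 2 were called. Their median difference was 0.54, against -0.01 over all genes. It was -0.08 in replicate 1 alone and 1.07 in replicate 2 alone. Without the parental replicate 2 arrays the median was also -0.08, by construction, since the replicate block then leaves the strain difference to replicate 1. It was 0.30 without the dpl1 30 min replicate 2 array, 0.35 without the parental 25 min replicate 2 array, 0.36 without the parental 30 min replicate 2 array and 0.86 without the parental 25 min replicate 1 array. The median by matched pair of arrays was -0.78 at 25 min in replicate 1, 0.97 at 25 min in replicate 2, 0.67 at 30 min in replicate 1 and 1.10 at 30 min in replicate 2, so 1 pair ran the other way: there 14 of the 91 genes were higher in dpl1, against 90, 86 and 91 in the other pairs. The median tRNA level was 8.03, 9.05, 8.13 and 8.49 in the dpl1 arrays, against 8.75, 7.76, 7.48 and 7.45 in the parental arrays. The 57 snoRNA genes had a median difference of 0.24 (0.11 in replicate 1 alone), with 15 higher and 1 lower at an unadjusted p under 0.05. SNR6, the U6 RNA of the spliceosome, read 9.76, 10.97, 9.41 and 10.84 in dpl1, against 9.02, 9.43, 8.94 and 9.01 in the parental strain, and differed by 1.15 ± 0.20 (adjusted p 0.0575).

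All 19 mitochondrially encoded genes had a positive difference, between 0.12 and 1.63. At an unadjusted p under 0.05, 13 were higher and 0 lower, against 5.37% and 5.29% of all genes. Several are intron genes, such as BI2, BI3 and BI4 of COB, so the 19 are not separate transcripts. The median level of the list was 4.46 in dpl1 and 3.57 in the parental strain, against 6.48 and 6.46 over all genes. The median difference was 0.66 (0.65 in replicate 1 alone and 0.44 without the parental 30 min replicate 1 array). It was 1.44 over the members left without the dimmest 25% of genes. By matched pair it was 0.10 at 25 min and 1.09 at 30 min in replicate 1, and 0.80 at 25 min and 0.67 at 30 min in replicate 2. ATP6, a membrane subunit of ATP synthase, read 9.04, 6.45, 9.49 and 6.88 in dpl1, against 8.80, 4.70, 7.96 and 4.57 in the parental strain, a difference of 1.46 ± 0.25 (adjusted p 0.0575). COX2, a cytochrome oxidase subunit, differed by 0.88 ± 0.16 (adjusted p 0.0655), and COB, apocytochrome b, by 1.54 (adjusted p 0.083). In each of these 3 genes replicate 2 lay below replicate 1 in both strains. The nuclear genes for mitochondria did not share the shift: the median was 0.06 over 43 genes of the respiratory chain and ATP synthase, 0.08 over 68 mitochondrial ribosomal protein genes and 0.03 over 56 genes of mitochondrial protein import and biogenesis. In replicate 2 the ribosomal RNA controls above were higher in dpl1, as were the tRNA, snoRNA and mitochondrial medians. From 25 to 30 min the parental replicate 2 18S controls went from 9.84 to 5.77. Over that step the replicate 2 pair median went from 0.97 to 1.10 for tRNA genes and from 0.32 to 0.40 for snoRNA genes. For the mitochondrial genes it went from 0.80 to 0.67. The part of these controls in the result was not tested.

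**Figure D3:**
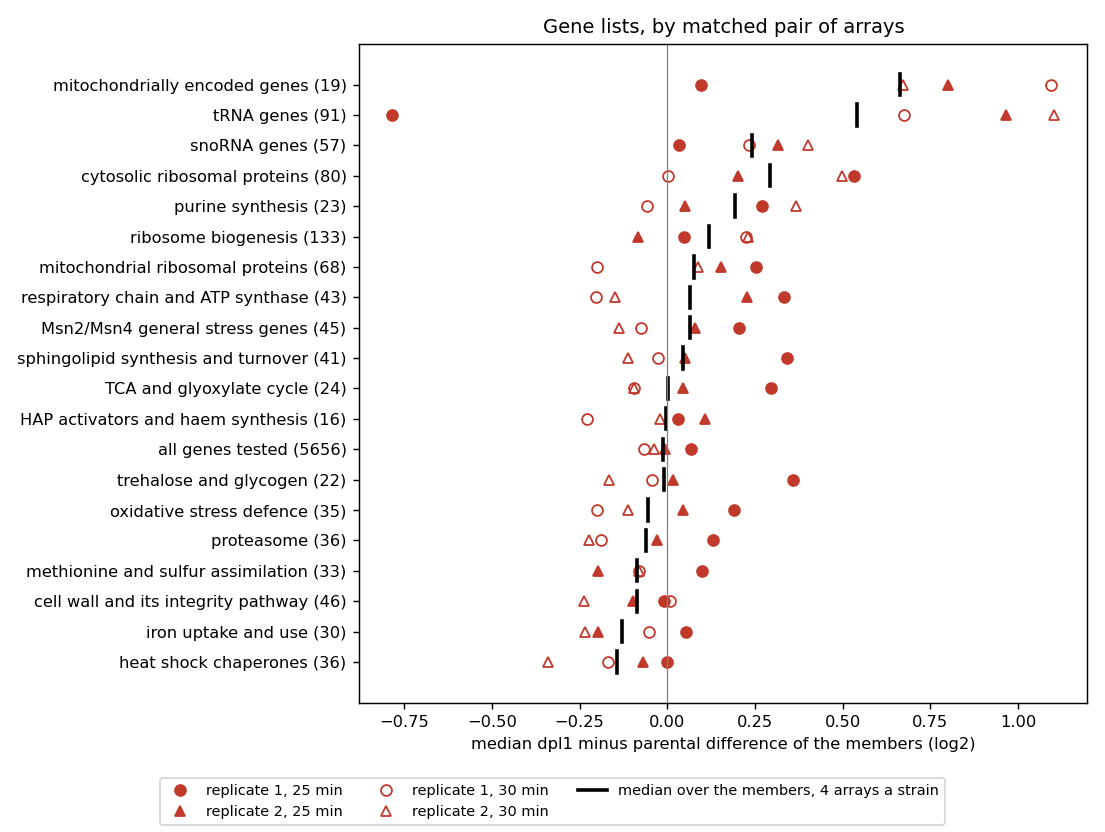
Median dpl1 minus parental difference (log2, horizontal axis) of the members of each gene list, with the number of genes in brackets. The bar is the median of the fitted differences over the 4 arrays of each strain, and the symbols are the medians in each matched pair of arrays (circles replicate 1, triangles replicate 2, filled 25 min, open 30 min). The pairs of most lists fall on both sides of 0, and the tRNA pairs run from -0.78 to 1.10.

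No gene for making ribosomes was called. Of 80 cytosolic ribosomal protein genes 35 were higher and 0 lower at an unadjusted p under 0.05, against 5.37% and 5.29% of all genes, and 73 had a positive difference. The median was 0.29, and by matched pair it was 0.53 at 25 min and 0.00076 at 30 min in replicate 1, and 0.20 and 0.50 in replicate 2. RPS1A, a protein of the small subunit, read 10.28, 9.06, 10.40 and 9.43 in dpl1, against 9.26, 8.19, 10.00 and 8.46 in the parental strain. Its difference of 0.82 ± 0.14 was not called (adjusted p 0.0575). RPL6A, of the large subunit, differed by 0.78 ± 0.14 (adjusted p 0.0655), RPL22B by 0.75 ± 0.15 (0.083) and RPS1B by 0.85 ± 0.19 (0.117). RPS1A and RPS1B are near-identical copies, as are several other pairs in the list, and probe sets may not tell them apart. Of 133 ribosome biogenesis genes 20 were higher and 0 lower at an unadjusted p under 0.05, and the median was 0.12 (0.18 without the parental 25 min replicate 2 array and 0.07 without the parental 30 min replicate 2 array). UTP14, of the small subunit processome, differed by 0.65 ± 0.16 (adjusted p 0.192), PUF6, a repressor of translation that also acts in ribosome assembly, by 0.57 ± 0.14 (0.192), and NOP58, a core protein of snoRNA particles, by 0.54 ± 0.14 (0.194). Among 30 translation factors the median was 0.06, and the elongation factor YEF3 differed by 0.41 ± 0.14 (adjusted p 0.317).

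No chaperone gene was called either. Of 36 heat shock chaperone genes 0 were higher and 9 lower at an unadjusted p under 0.05, against 5.37% and 5.29% of all genes, and 4 had a positive difference. The median difference was -0.14, and by matched pair it was -0.00043 at 25 min and -0.17 at 30 min in replicate 1, and -0.07 and -0.34 in replicate 2. The median level of the list was 10.91 in dpl1 and 11.15 in the parental strain, and for 34 of the 36 the 95% interval of the difference lay within 1 of 0. BTN2, which sorts misfolded proteins into deposits, read 8.05, 10.30, 7.24 and 9.35 in dpl1, against 8.39, 10.77, 8.30 and 10.73 in the parental strain. BTN2 had a difference of -0.81 ± 0.17 (adjusted p 0.0961), and its replicates lay further apart than its strains. SSA3, an inducible Hsp70 chaperone, differed by -0.51 ± 0.13 (adjusted p 0.202), STI1, a co-chaperone of Hsp90, by -0.48 ± 0.15 (0.291), and HSP30, a stress protein of the plasma membrane, by -0.63 ± 0.20 (0.294).

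The general stress genes, targets of the activators Msn2 and Msn4, held no call. Of 45 members 2 were higher and 3 lower at an unadjusted p under 0.05, against 5.37% and 5.29% of all genes. The median was 0.06. TMA10, a ribosome-associated protein, read 9.43, 10.16, 8.68 and 10.08 in dpl1, against 10.01, 10.81, 9.73 and 10.80 in the parental strain, a difference of -0.75 ± 0.15 (adjusted p 0.083). HSP12, a small stress protein of membranes, read 13.34, 13.26, 13.22 and 13.40 in dpl1, against 13.57, 13.68, 13.51 and 13.60 in the parental strain. Its arrays did not overlap, but the gap was small (-0.29 ± 0.13, adjusted p 0.456). GRE1, a stress-induced hydrophilin, and FMP45, of the plasma membrane domains called eisosomes, each differed by 0.35 (adjusted p 0.381 and 0.395). Of the 22 genes of trehalose and glycogen, whose median was -0.01, TPS2, the trehalose phosphate phosphatase, differed by 0.54 ± 0.20 and GIP2, a targeting subunit of the Glc7 phosphatase, by 0.62 ± 0.22 (adjusted p 0.372 and 0.355).

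None of the other genes of smallest p on the lower side was called. ROQ1, which redirects a ubiquitin ligase under stress, read 8.11, 8.77, 7.55 and 8.22 in dpl1, against 8.71, 9.72, 8.11 and 8.93 in the parental strain (-0.71 ± 0.13, adjusted p 0.0762). FRT2, a membrane protein of the endoplasmic reticulum, read 6.02, 5.96, 5.70 and 5.40 in dpl1, against 6.68, 6.85, 6.10 and 6.19 in the parental strain (-0.69 ± 0.14, adjusted p 0.083). ROQ1 overlapped between the strains and FRT2 did not. CPP2 read 9.38, 9.32, 9.24 and 9.32 in dpl1, against 9.99, 9.97, 9.78 and 10.01 in the parental strain, with narrow spread and no overlap (-0.63 ± 0.13, adjusted p 0.0932). The glutaredoxin GRX8 differed by -0.66 ± 0.14 (adjusted p 0.0961), but its levels of 2.50 to 2.59 in dpl1 and 2.92 to 3.46 in the parental strain lay near the dimmest of the arrays. SRX1, the sulfiredoxin that repairs oxidised peroxiredoxins, differed by -0.68 ± 0.15 (0.114), the subtelomeric gene COS8 by -0.67 ± 0.14 (0.0961) and HOT13, a zinc-binding protein between the mitochondrial membranes, by -0.60 ± 0.14 (0.13). All of these were lower in 4 of 4 pairs, but they were picked by p from the same arrays, so this is no further evidence. ROQ1 and FRT2 were each called in 3 of 24 alternatives: within replicate 2 alone, with array weights and without the parental 25 min replicate 1 array. These fits called many more genes than the 6 of the main fit.

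Respiratory and haem genes held no called member. Of 16 genes of the HAP activators and haem synthesis the median was -0.00491. At an unadjusted p under 0.05, 1 was higher and 1 lower, against 5.37% and 5.29% of all genes. HAP2, a subunit of the activator of respiratory genes, read 6.81, 6.99, 6.37 and 6.79 in dpl1, against 7.22, 7.25, 6.99 and 7.30 in the parental strain. Its arrays did not overlap, and the difference of -0.45 ± 0.14 was not called (adjusted p 0.27). HEM3, of haem synthesis, differed by 0.39 ± 0.18 (adjusted p 0.465). INH1, the inhibitor of ATP synthase, differed by -0.38 ± 0.14 without overlap (adjusted p 0.384), the cytochrome oxidase subunit COX8 by -0.35 ± 0.14 (0.395) and the ATP synthase subunit ATP4 by 0.40 ± 0.18 (0.45). The 24 genes of the TCA and glyoxylate cycle held no member at an unadjusted p under 0.05, and for all 24 the 95% interval lay within 1 of 0.

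Nutrient and wall lists had medians between -0.13 and 0.19 and no call, and their counts stand beside 5.37% of all genes higher and 5.29% lower at an unadjusted p under 0.05. Of 23 purine genes 4 were higher and 1 lower at an unadjusted p under 0.05, with a median of 0.19. HPT1, which salvages hypoxanthine and guanine, read 6.21, 6.59, 6.37 and 7.65 in dpl1, against 5.35, 4.89, 5.93 and 6.43 in the parental strain (1.06 ± 0.22, adjusted p 0.0961). Of 33 genes of methionine and sulfur assimilation 1 was higher and 4 were lower at an unadjusted p under 0.05, with a median of -0.09. MET8, of sirohaem synthesis, differed by -0.49 ± 0.16 without overlap (adjusted p 0.318), STR3, a cystathionine lyase, by -0.36 ± 0.16 (0.441), the permease MMP1 by -0.38 ± 0.16 (0.422) and MET6, the methionine synthase, by 0.33 ± 0.14 (0.435). Iron genes had 0 higher and 4 lower of 30, with a median of -0.13. FIT3, a wall protein that holds siderophores, differed by -0.63 ± 0.15 (adjusted p 0.153), and SMF3, a vacuolar iron transporter, by -0.51 ± 0.15 (0.253). Cell wall genes had 0 higher and 5 lower of 46, with a median of -0.09. The mannoprotein TIR1 differed by -0.52 ± 0.15 (0.254) and the protease YPS3 by -0.37 ± 0.13 without overlap (0.338).

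Of the 37 lists that were made by hand, 35 had no called member, the exceptions being the sphingolipid list with DPL1 and the mitochondrially encoded genes. Outside the mitochondrial genome 30 of 36 lists had a median within 0.1 of 0, and the medians ran from -0.16 to 0.29. Other single genes of small p were the transporters PUT4, for proline (0.62 ± 0.14, adjusted p 0.13), CTR2, for vacuolar copper (0.55 ± 0.15, 0.243), and HXT2, for hexoses (-0.58 ± 0.14, 0.153). The redox genes TRX3, mitochondrial thioredoxin, and GSH1, of glutathione synthesis, differed by -0.56 ± 0.16 and 0.52 ± 0.16 (adjusted p 0.254 and 0.285). Pheromone pathway genes had 0 higher and 4 lower of 36 at an unadjusted p under 0.05 (5.37% and 5.29% of all genes), among them PRM4 (-0.61 ± 0.14) and the kinase STE11 (-0.58 ± 0.16), both without overlap and with adjusted p of 0.14 and 0.217. RPN4, the activator of proteasome genes, differed by -0.54 ± 0.15 (0.217), ERG25, of sterol synthesis, by -0.49 ± 0.15 (0.294), SPL2, of phosphate starvation, by -0.49 ± 0.14 (0.26), the replicative helicase subunit MCM3 by -0.41 ± 0.14 (0.338) and the myosin MYO1 by 0.79 ± 0.21 (0.21).

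At each time alone DPL1 was the 1 gene called. At 25 min DPL1 differed by -6.29 ± 0.30 (adjusted p 1.8e-05), and 762 genes (13.5%) had an unadjusted p under 0.05, 8.17% higher and 5.3% lower. RPS1B followed it with 1.31 ± 0.18 (adjusted p 0.119). At 30 min DPL1 differed by -6.72 ± 0.30 (adjusted p 9.75e-06), and 362 genes (6.4%) had an unadjusted p under 0.05, 3.66% higher and 2.74% lower. YNCM0020W differed by 1.36, YNCK0012C by 1.33 and BTN2 by -1.22 at that time, each with an adjusted p of 0.0763. The change of the strain difference between 25 and 30 min was tested directly. limma called 0 genes (0%), and 430 (7.6%) had an unadjusted p under 0.05, 2.6% higher and 5% lower at 30 min. For BTN2 that change was -0.81 ± 0.25, and for RPS1B it was -0.93 ± 0.26 (adjusted p 0.651 each).

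The late strain difference was also set against the same difference earlier in the course. Against the time before heat limma called 0 genes (0%), with 321 (5.68%) at an unadjusted p under 0.05 (2.39% higher and 3.29% lower late) and a median SE of 0.29. The general stress list had the change that stood furthest from the median gene among protein-coding nuclear lists. Its median difference was -0.41 before heat and 0.06 late, with a median change of 0.48, against -0.04 over all genes. For CTT1, the cytosolic catalase, the late difference exceeded that before heat by 1.35 ± 0.31, and for RGI1, a respiratory growth gene, by 1.17 ± 0.27 (adjusted p 0.505 each). Leaving out the dpl1 replicate 2 array before heat gave 6 calls and leaving out the parental replicate 2 array gave 3, a fit in which 1 array stands for a group and takes its spread from the rest. Against 5 to 20 min of heat limma called 0 genes (0%), with 209 (3.7%) at an unadjusted p under 0.05 (1.56% higher and 2.14% lower late) and a median SE of 0.21. For ATP6 the value was 2.29 ± 0.70 against the time before heat and 0.93 ± 0.49 against 5 to 20 min (adjusted p 0.62 and 0.996), and for TMA10 it was 0.37 ± 0.63 and -0.57 ± 0.45 (0.976 and 0.996). Both tests take in earlier replicate 2 arrays whose 18S controls read 4.69 to 6.49 in dpl1 and 4.57 to 11.2 in the parental strain.

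**Figure D4:**
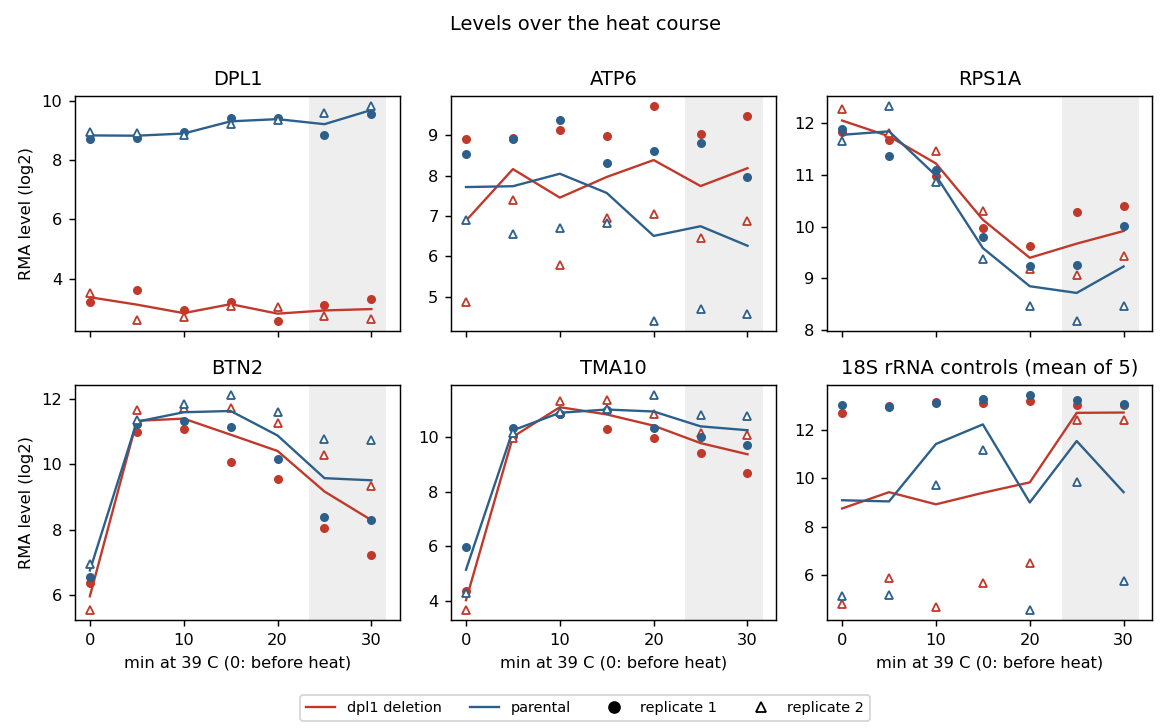
RMA level (log2, vertical axis) of DPL1, ATP6, RPS1A, BTN2, TMA10 and the 18S ribosomal RNA controls against min at 39 C (horizontal axis), for dpl1 and parental arrays; circles are replicate 1, triangles replicate 2, lines the mean of both, and the grey band marks 25 and 30 min. DPL1 stays between 2.58 and 3.63 in dpl1, and the 18S controls of replicate 2 read 12.4 in dpl1 at 25 and 30 min, against 9.84 and 5.77 in the parental strain.

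The double deletion, which cannot make the phosphates that dpl1 cannot break down, gave a wider contrast with dpl1 at the same times. limma called 201 genes (3.55%), 90 higher in dpl1 (1.59%) and 111 lower (1.96%), against 57 without the replicate block. At an unadjusted p under 0.05 there were 1480 (26.2%), 9.48% higher and 16.7% lower. Of the deleted genes, DPL1 differed by -6.70 ± 0.19, LCB5 by 4.24 ± 0.16 and LCB4 by 1.72 ± 0.16 (adjusted p 3.87e-07, 2.06e-06 and 0.00295), each against the dim signal of the strain that lacks it and so as a lower bound. Of 33 genes of methionine and sulfur assimilation 12 were called lower in dpl1 and 0 higher, with a median of -0.70, against -0.07 over all genes, and 7 were called lower without the replicate block. STR3 read 6.04, 5.48, 6.84 and 5.97 in dpl1, against 7.33, 7.60, 9.74 and 8.14 in the double deletion, and it fell by 2.12 ± 0.29 in dpl1 (adjusted p 0.0107). Its parental arrays, at 6.54, 5.93, 7.33 and 5.98, lay in and around the dpl1 range. MET17, the enzyme that fixes sulfide, read 8.43, 7.95, 8.86 and 8.15 in dpl1, against 9.18, 10.15, 11.20 and 10.63 in the double deletion and 8.33, 7.91, 9.27 and 8.22 in the parental strain (-1.95 ± 0.30, adjusted p 0.0164). SAM1, of S-adenosylmethionine synthesis, differed by -1.97 ± 0.36 between dpl1 and the double deletion (adjusted p 0.0306), and KDX1, a kinase-like gene of the cell wall stress response, by -2.02 ± 0.27 (0.0104). The contrasts of dpl1 with the parental strain and with the double deletion share the dpl1 arrays, so their values are set side by side and not compared by a test.

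**Figure D5:**
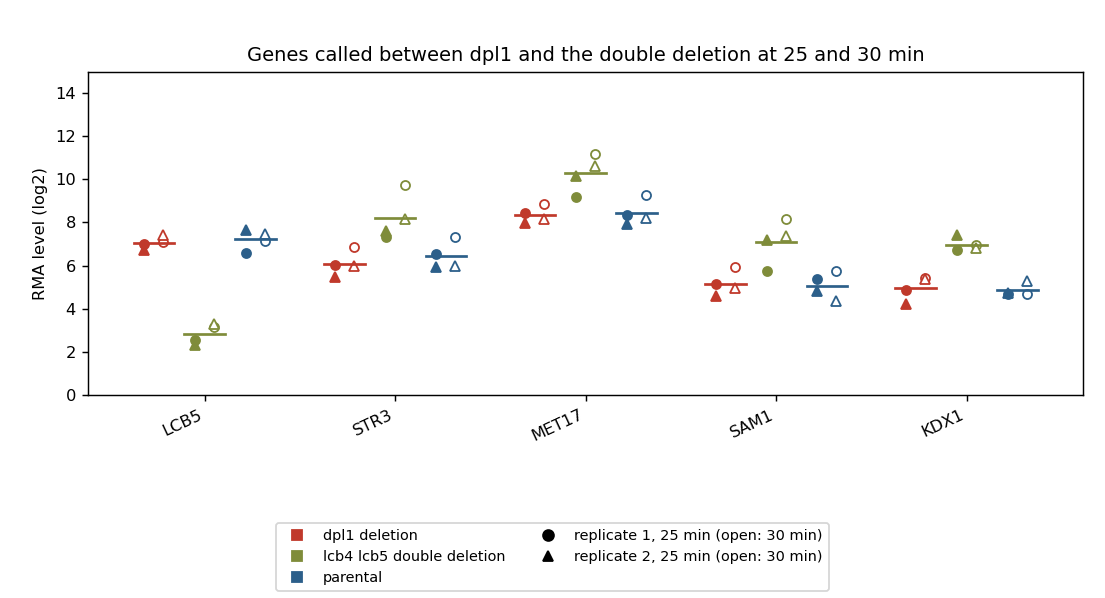
RMA levels (log2, vertical axis) of LCB5 and 4 genes that were called between dpl1 and the double deletion, with the 4 late arrays of dpl1 at left, the double deletion in the middle and the parental strain at right; lines are means, circles replicate 1, triangles replicate 2, filled marks 25 min and open marks 30 min. For STR3, MET17, SAM1 and KDX1 the double deletion mean is the highest, and the dpl1 and parental means lie close together.

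Other groups also differed between dpl1 and the double deletion. Over all genes 1.59% were called higher and 1.96% lower in dpl1. Of 91 tRNA genes 40 were called higher, with a median of 1.56, which was 0.70 in replicate 1 and 2.36 in replicate 2. The count was 22 without the replicate block and 7 without the replicate 2 arrays of the double deletion. EMT5, a methionine tRNA gene, and YNCB0015W differed by 2.74 each (adjusted p 0.0124 and 0.00925). EMT5 differed by 1.74 in replicate 1 and 3.74 in replicate 2, and YNCB0015W by 1.85 and 3.63. Of 19 mitochondrially encoded genes 7 were higher, of 46 cell wall genes 9 were lower and of 45 general stress genes 5 were higher in dpl1. Without the replicate block these counts were 1, 3 and 0, and without the replicate 2 arrays of the double deletion they were 0, 2 and 0. The 18S controls were again unequal in replicate 2, at 12.40 and 12.41 in dpl1 and 10.49 and 5.25 in the double deletion, and their part in the tRNA and mitochondrial counts was not tested. Within replicate 1 these controls read 13.02 and 13.04 in dpl1 and 13.03 and 13.01 in the double deletion. There the tRNA median was 0.70 and the sulfur median -0.65, and STR3 differed by -2.10 and MET17 by -1.55. Within replicate 2 these values were 2.36, -0.84, -2.14 and -2.34, in the same order. Each of these fits holds 1 array per strain and time, so only the sizes are given. The part of the controls in these sizes was not tested. With the replicate block, the fit without the double deletion's replicate 2 arrays also takes its strain differences from replicate 1 alone. Without the replicate 2 arrays of the double deletion 15 genes were called, DPL1, LCB4, LCB5, EMT5 and KDX1 among them, and the sulfur list had 0 calls and a median of -0.65. STR3, MET17 and SAM1 were no longer called there (adjusted p 0.116, 0.25 and 0.322), nor was YNCB0015W (0.0529).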

How the data were processed

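The authors deposited 1 log2 value per probe set and array, made with RMA (background correction, quantile normalisation and summary of probes), per the submitters' processing notes, which name no version. The log base is inferred: the values run from 1.36 to 14.7. Quantile normalisation gives arrays nearly equal distributions, which hides a change common to all transcripts. The small number of arrays limits the precision.

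The table holds 9335 probe sets, 60 of them controls. Of the 9275 others 6504 have 1 symbol in the platform annotation, 328 several and 2443 none listed. For each of 5656 genes the probe set of highest mean over all arrays was used, with no filter on dim signals (315 genes have several). Neighbouring genes were read from the RefSeq gene table of the S288C assembly. No coordinates are printed, since no source used here names the build of the probe sets, and no sequences were used here.

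The 8 arrays were fitted in R 4.3.3 with limma 3.58.1, with strain, time and replicate number as terms (4 residual degrees of freedom) and empirical Bayes moderation, in two-sided tests. The contrast with the double deletion was fitted the same way on its 8 arrays. Single times used means for each strain and time in the same 8 arrays, and the changes since earlier times used the 28 arrays of both strains. The replicate numbers come from the labels. As a check, the deviations from group means of arrays with 1 number were set against each other and correlated at 0.459 to 0.739 in 6 of 6 pairs of the 4 groups, so the numbers were taken to pair the arrays and the replicate block is in the fits. The members and gene lists were chosen with earlier results of these data known. Lists are described by counts and medians beside those of all genes.

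Genes were named by a rule: DPL1, 4 markers and the 2 kinases, up to 15 called genes a direction whose arrays do not overlap (filled to 10 by smallest p), up to 4 members of smallest p in each list and up to 5 called genes a direction in the other contrasts; the text names some and leaves others out. COB, CTT1, RGI1, MF(ALPHA)1, STE3, STE2 and the neighbours SSD1 and HDA2 were named besides. Alternatives were other blocks, other sets of arrays, median centring, cyclic loess, centring on hybridisation controls, a filter on the dimmest 25%, a stricter adjusted p of 0.01, trend and robust moderation, array weights and probe set means. Those on all probe sets, on nuclear protein-coding genes, without the replicate 2 arrays of the parental strain or the double deletion, and by replicate for the double deletion were chosen after seeing the data. The fits were tested on simulated data with independent noise in each array, which leaves out the correlation within a course. There the main fit recovered 76.1% of log2 changes of 1 and 31.3% of changes of 0.5. The contrast of the late difference with that before heat recovered 37.3% and 2.99%, so a count of 0 there can miss many such changes.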

Additional observations from a re-analysis of the deposited data

Results flagged for a closer look

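When all probe sets but the controls were tested, 13 outside the gene tests were called, 5 with no symbol listed, 4 with several symbols and 4 being further probe sets of a tested gene. An unnamed probe set read 12.30, 12.03, 12.27 and 12.46 in dpl1, against 4.27, 3.52, 3.88 and 3.30 in the parental strain, a difference of 8.52, and 12.83 on average in the double deletion. The other unnamed ones differed by 1.56, 1.32, 0.81 and -1.03. Probe sets shared by COB and its intron genes differed by 1.79 (with BI3 and BI4), 1.76 (with BI2, BI3 and BI4) and 1.42 (with BI4), and a further COB probe set by 1.29. A probe set shared by the transposon genes YHL009W-B, YHL009W-A and YJL113W differed by 0.99. Further probe sets of the kinase gene TOR1, the chromatin remodeller SWR1 and SAP155 differed by 0.99, 0.98 and 0.81.

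2 of the 142 groups of 4 arrays examined for the genes of the text held an array far from the other 3, where chance flags about 1 in 20 groups. SNR6 read 9.43 in the parental 25 min replicate 2 array, against 8.94 to 9.02 in the other 3 parental arrays. TIR1 read 7.26 in the parental 30 min replicate 1 array, against 7.72 to 7.79 in the other 3.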

How the results depend on the processing

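DPL1 was called in all 24 alternatives, between -7.07 and -6.01. The count of calls, 6, became 1 with no replicate block, with each strain's replicate course as a random block, with all 42 arrays, with centring on the hybridisation controls and among nuclear protein-coding genes only. It was 2 at an adjusted p under 0.01, 97 with array weights, 10 with probe set means and 19 over all probe sets. It was 11 in replicate 1 alone, 222 in replicate 2 alone and between 1 and 85 when 1 array or both parental replicate 2 arrays were left out. Median centring, cyclic loess, a filter on the dimmest 25% and trend with robust moderation gave 5 to 7. The late difference against that before heat had 0 to 6 calls when an array before heat was left out. The contrast with the double deletion had 57 calls with no replicate block, against 201, and 60 in replicate 1, 603 in replicate 2 and 15 without the double deletion's replicate 2 arrays. The block changed no count of calls in the other contrasts. The cause of these changes was not tested.

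Centring on the hybridisation controls moved the median gene to -0.58, against -0.01. On that scale TRP1 was at -0.29, HIS4 at -0.50, LCB4 at -0.37, FAA4 at -0.23, YPK2 at -0.24, HEM3 at -0.18, ATP4 at -0.16, GRE1 at -0.22, FMP45 at -0.21, TPS2 at -0.030, GSH1 at -0.045, MET6 at -0.23, CTR2 at -0.013, NOP58 at -0.025, YEF3 at -0.15 and SSD1 at -0.25, each above that median and none called. List medians moved with it: the tRNA median was -0.023, the snoRNA median -0.32, the ribosomal protein median -0.27 and the chaperone median -0.71. Over all alternatives the tRNA median ran from -0.084 to 1.07 and the mitochondrial one from 0.098 to 1.44. Of the list medians recomputed 51 moved by more than the spread between pairs and 843 did not. Many of the 843 could not move. Leaving out the replicate block, the random block, all arrays of the series, trend with robust moderation and all probe sets leave the fitted differences unchanged. For tRNA genes the standard deviation over pairs was 0.87, so the change from 0.54 to -0.084 in replicate 1 alone counted as not moved. The 843 is therefore no measure of how stable the medians are. With array weights URA3 was at 0.029. With arrays left out LCB5 ranged from -0.32 to 0.19, HIS4 from -0.10 to 0.15, LEU2 from -0.37 to 0.047 and URA3 from -0.27 to 0.071. In replicate 1 alone they were at 0.19, -0.10, -0.37 and -0.27, and in replicate 2 alone at -0.52, 0.24, 0.14 and 0.24, in the same order. The ranges with arrays left out include the fit without both parental replicate 2 arrays, which gives the replicate 1 differences by construction.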
